A study of Mus musculus with 2 samples.

Results

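The nuclear genes for the mitochondrial respiratory chain and ATP synthase were followed across the immune cells of mouse lungs that carried breast tumour metastases. Members were all genes of the distal gene list whose symbol starts with Nduf, Uqcr, Cox4, Cox5, Cox6, Cox7, Cox8 or Atp5, and the genes Sdha, Sdhb, Sdhc and Sdhd, with pseudogenes (symbols with -ps) left out. They were joined to the niche gene list by Ensembl identifier. Of 93 genes that met this rule, all 93 were in both lists, and 89 had 20 or more unique molecular identifiers (UMIs, each the tag of 1 captured RNA molecule) in the 2 libraries together, out of 29413 genes shared by the lists. The rule used no measured difference. Cox7b2, Cox8b, Cox8c and Ndufa4l2 were below 20 UMIs and are not described further. The 89 measured members were 36 genes of complex I, 4 of complex II, 8 of complex III, 16 of complex IV, 15 of complex V and 10 genes counted as assembly factors (the Ndufaf genes, Atp5s and Atp5sl), and Ndufa4 was placed in complex IV, where its protein resides.

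Both libraries came from female Balb/c mice that had received intravenous 4T1 cells, a mouse mammary carcinoma line of the same strain, in a version able to label its surroundings. Lungs were taken at day 7, and immune cells were sorted by flow cytometry into a niche sample and a distal lung sample, each made into 1 droplet-based 3′ library (10x Genomics). Tumour-bearing lung was thus the source of both groups, and the distal cells are not cells of a healthy lung. How many animals were pooled for a library, and which gates were used, was not given in the labels. With 1 library per group, no difference has a replicate check, no test was possible, and every interval given is a 95% interval that covers counting error only.

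The chain moves electrons from NADH through complex I, or from succinate through complex II, to ubiquinone, then through complex III and cytochrome c to complex IV, which reduces oxygen. Complexes I, III and IV pump protons across the inner mitochondrial membrane, and complex V, the ATP synthase, uses their return to make ATP. Most subunits are encoded in the nucleus and a few core subunits in mitochondrial DNA, so that both genomes supply parts of complexes I, III, IV and V. Macrophages are known to shift between respiration and glycolysis with their state of activation.

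After filters on genes per cell and mitochondrial share, 3535 distal cells (median 5786 UMIs) and 3081 niche cells (median 11197 UMIs) remained, and 4 cell barcodes occurred in both libraries. Levels are CPM (counts per 1000000 UMIs), a gene's UMIs in all cells of a class as a share of every UMI in that class. Since each molecule is counted once at its 3′ end, CPM does not depend on transcript length. Cells were clustered without the members and without mitochondrially encoded genes, and clusters were named from marker genes. The niche library held 1710 monocyte/macrophage-like cells and the distal library 317, whereas alveolar macrophage-like cells numbered 10 and 1112. Monocyte/macrophage-like, interstitial macrophage-like and pooled dendritic-like cells had 50 or more cells in each library and were compared between libraries. The 2 files came from different versions of the counting software and list different gene sets, which cannot be told apart from the groups.

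The promoters of 4 members are shown, chosen by their ratios between libraries in monocyte/macrophage-like cells. Atp5k had the highest ratio of complex V and Uqcr11 that of complex III, and Cox7a2l and Cox6b2 were the members more than 1.2-fold lower in the niche library. The sequences are those of RefSeq on build GRCm38.p6, from 250 bases before to 50 bases after the annotated start, 5′ to 3′ on the gene's strand, at chr5:108434350-108434649 (minus strand) for Atp5k, chr10:80406772-80407071 (minus) for Uqcr11, chr17:83514284-83514583 (minus) for Cox7a2l and chr7:4753045-4753344 (minus) for Cox6b2. For Cox7a2l, this start lies inside the longer gene model of GENCODE vM21, which reaches chr17:83517330. Capitals mark matches to the NRF1 motif GCGCANGCG and the ETS-family motif CCGGAAG on either strand.
Atp5k: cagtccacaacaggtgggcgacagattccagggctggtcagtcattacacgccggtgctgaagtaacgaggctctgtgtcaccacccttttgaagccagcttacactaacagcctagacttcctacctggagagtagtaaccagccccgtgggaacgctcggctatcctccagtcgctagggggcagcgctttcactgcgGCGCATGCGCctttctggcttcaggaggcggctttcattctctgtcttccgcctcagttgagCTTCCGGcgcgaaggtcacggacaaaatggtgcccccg
Uqcr11: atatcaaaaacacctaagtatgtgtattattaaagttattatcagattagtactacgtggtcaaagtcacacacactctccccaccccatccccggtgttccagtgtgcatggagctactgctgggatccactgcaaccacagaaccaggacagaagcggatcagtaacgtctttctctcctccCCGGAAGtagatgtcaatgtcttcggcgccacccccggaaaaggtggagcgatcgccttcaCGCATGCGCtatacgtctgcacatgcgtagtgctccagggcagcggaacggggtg
Cox7a2l: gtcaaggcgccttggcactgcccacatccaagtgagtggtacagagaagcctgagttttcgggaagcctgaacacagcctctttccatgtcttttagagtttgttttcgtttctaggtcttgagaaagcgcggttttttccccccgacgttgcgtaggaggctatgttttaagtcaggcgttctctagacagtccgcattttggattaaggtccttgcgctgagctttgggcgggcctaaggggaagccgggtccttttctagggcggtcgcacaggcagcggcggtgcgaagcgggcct
Cox6b2: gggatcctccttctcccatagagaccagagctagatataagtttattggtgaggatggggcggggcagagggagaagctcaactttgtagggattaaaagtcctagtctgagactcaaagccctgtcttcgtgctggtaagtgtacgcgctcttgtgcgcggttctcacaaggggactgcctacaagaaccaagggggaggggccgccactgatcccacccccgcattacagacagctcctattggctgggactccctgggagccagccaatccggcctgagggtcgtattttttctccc
The stretch in Atp5k that reads the same on both strands counts as 2 overlapping NRF1 matches. NRF1 and the ETS factor GABP are transcription factors known to act at many nuclear genes for mitochondrial proteins. RefSeq promoters were found for 75 members, with 81 promoter sequences, members with several starts included. Of these sequences, 62 matched the gene's own transcripts on the same strand after the start and 0 on the other strand. The remaining 19 matched on neither strand, so their place was not checked in this way. The NRF1 motif was present in 22 of 75 members (29.3%) and in 7.03% of the 27025 genes of the table, and the ETS motif in 18 members (24%) and 9.93% of genes. The YY1 motif AAGATGGCG was found in 9 members (12%) and 1.64% of genes, and the ESRRA motif TCAAGGTCA in 2 members (2.67%) and 0.466% of genes. A match describes letters in this window and no more. The median niche over distal log2 ratio in monocyte/macrophage-like cells was 0.21 for the 22 members with the NRF1 motif and 0.26 for the 53 without it. For the ETS motif it was 0.17 for 18 members and 0.27 for 57, and for the YY1 motif 0.26 for 9 and 0.26 for 66. For the ESRRA motif it was 0.22 for 2 members and 0.26 for 73. Several members had a higher ratio than Uqcr11, as given below. Among them, Ndufaf4 held NRF1 matches, and Ndufaf2, Ndufb2, Atp5g1, Cox7b and Ndufa12 held none of these motifs.

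In monocyte/macrophage-like cells, members of all 5 complexes were higher in the niche library. The 89 members together made 26519 CPM in the distal library and 30982 CPM in the niche library, a log2 ratio of 0.22 (0.21 to 0.24). Single members spanned log2 ratios from -1.27 to 0.97. Of the 89 members, 80 had a higher CPM in the niche library, 40 were more than 1.2-fold higher and 2 more than 1.2-fold lower. Among all 10855 genes with 20 or more UMIs in this class, 21.5% were more than 1.2-fold higher and 27.4% more than 1.2-fold lower. The median log2 ratio was 0.25 for the members and -0.03 for all genes, so more of all genes were lower than higher in the niche library. Members are abundant RNAs, so genes with 1000 or more UMIs were also counted: 32 of 76 such members were above the fold and 1 below it, beside 19.4% above and 12.7% below among 2915 genes.

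**Figure D1:**
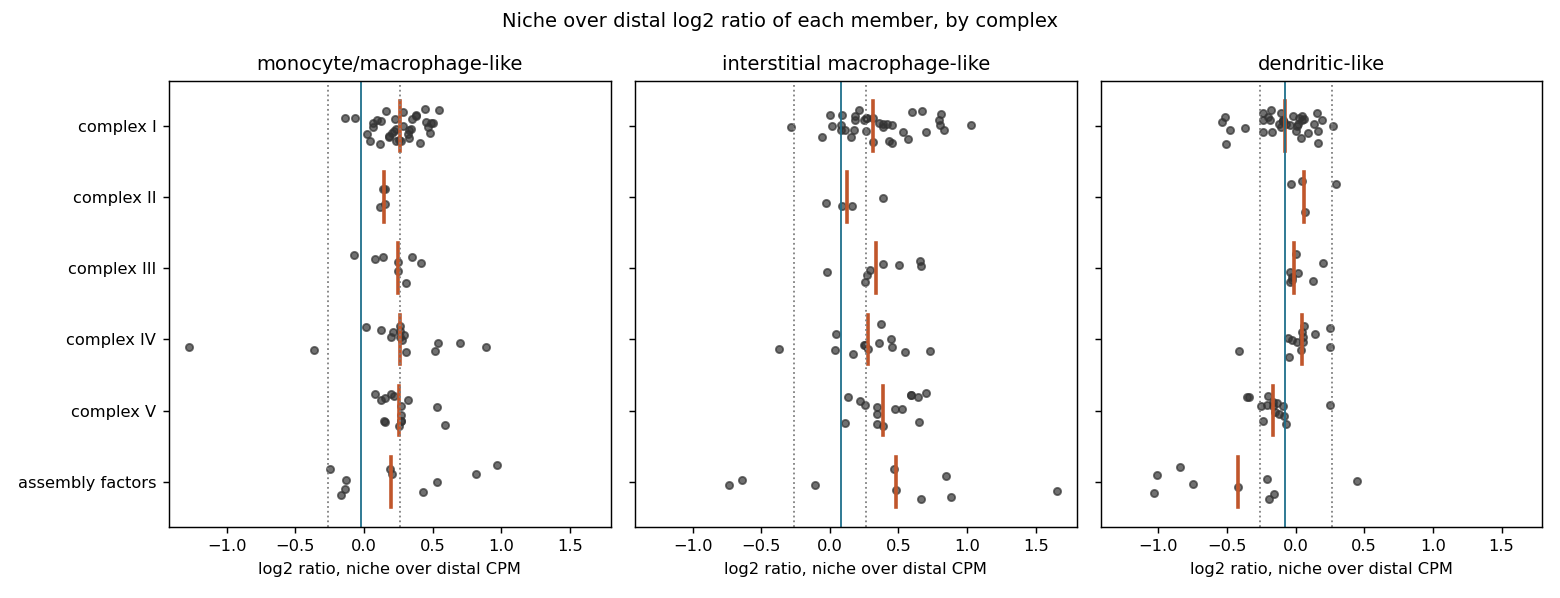
Each point is 1 member, placed by its log2 ratio of niche over distal CPM on the horizontal axis and by complex on the vertical axis, in 3 cell classes. Orange bars are medians of the members of a complex, the blue line is the median of all genes tested in the class, and dotted lines mark a fold of 1.2 in each direction. The members lie mostly to the right of the blue line in the first 2 classes and around it in dendritic-like cells.

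The size of this difference varied among clusters of the class. In the distal library 95 of 317 cells of the class were in cluster 1 and 116 in cluster 2, and in the niche library 899 of 1710 were in cluster 1 and 356 in cluster 2. The 79 subunit genes, assembly factors left out, went from 28740 CPM in the distal to 31151 CPM in the niche library in cluster 1, from 24763 to 30078 CPM in cluster 2 and from 28099 to 31922 CPM in cluster 4. These 3 clusters thus had more subunit RNA in the niche library, and among them the gap was smaller where the distal level was higher. Cluster 11, the remaining cluster of the class, held 37 distal and 164 niche cells. Its distal cells were fewer than the minimum set for a comparison, so its gap is not given. Its subunit level in the niche library was 27298 CPM, lower than the distal levels of clusters 1 and 4. Within cluster 1 alone the log2 ratio of all members was 0.12 (0.10 to 0.14), and 21 of 89 members were above the fold and 3 below it, beside 24.5% above and 29.5% below of the genes tested in that cluster. That share of members above the fold was near the background.

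Markers of other cell types moved with the library in this class. Summed neutrophil markers were at 229 CPM in the distal and 67.7 CPM in the niche library, with all 10 detected in both. Alveolar macrophage markers were at 121 and 31.6 CPM, with Krt79 at 0 in the niche library. Classical monocyte markers, which help define the class, were at 3215 and 2147 CPM. Carcinoma or epithelial markers were at 7.83 CPM, with Krt14 and Cldn4 at 0, and at 10.8 CPM, with Cldn4 at 0. The part of these cells or of free RNA in the members' difference was not tested.

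Complex I, which oxidises NADH, had 7090 CPM in the distal and 8413 CPM in the niche library in monocyte/macrophage-like cells, a log2 ratio of 0.25 (0.22 to 0.27). Of its 36 genes, 34 were higher in the niche library and 18 were above the fold. Among all genes tested in this class, 21.5% were above the fold. The 7 core subunits, which carry the redox centres or their scaffold, had a summed log2 ratio of 0.20 (0.13 to 0.26), and the 29 accessory subunits 0.25 (0.23 to 0.28), intervals that overlap. Ndufb2, an accessory subunit, was at 129 CPM in the distal and 188 CPM in the niche library (log2 ratio 0.54, 0.38 to 0.72). An exon of Ndufb2 overlaps a gene that is in 1 of the 2 lists, so its value may depend on the counting. Ndufa12, an accessory subunit that takes the place of the assembly factor Ndufaf2 late in assembly, was at 143 and 203 CPM (log2 ratio 0.50, 0.35 to 0.67). Ndufb8 was among the 2 most abundant complex I members, with 330 CPM in the distal and 450 CPM in the niche library, and it too overlaps a gene of 1 list. Ndufa13, the other, was at 421 and 435 CPM and differed by less than counting error. Ndufa6 went the other way, with 323 CPM in the distal and 293 CPM in the niche library (log2 ratio -0.14, -0.25 to -0.03). Ndufb11 stood at 208 and 199 CPM, a gap within counting error.

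Complex II, the succinate dehydrogenase, is the one complex with no mitochondrially encoded subunit. Its 4 genes were close to each other in ratio, from 0.11 for Sdhd to 0.15 for Sdhc. None passed the fold, beside 21.5% above and 27.4% below among all genes tested. Their sum was 600 CPM in the distal and 659 CPM in the niche library (log2 ratio 0.14, 0.06 to 0.22). Sdhb, the iron-sulfur subunit, made 296 and 325 CPM, the most of the 4. Sdhd, a membrane anchor, made 132 and 143 CPM. Sdha, the flavoprotein that holds the active site, was at 78.3 and 87.0 CPM.

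Complex III, which passes electrons to cytochrome c, had 2649 CPM in the distal and 3055 CPM in the niche library (log2 ratio 0.21, 0.17 to 0.24). Of its 8 genes, 3 were above the fold and 0 below it, beside 21.5% and 27.4% of all genes tested. Uqcr11 was at 304 and 405 CPM (log2 ratio 0.41, 0.31 to 0.53), and Uqcr10 at 344 and 438 CPM (0.35, 0.25 to 0.45). Uqcrh, the hinge protein that sits on cytochrome c1, was the most abundant member, with 615 CPM in the distal and 585 CPM in the niche library, a gap within counting error. Uqcrq had 457 and 564 CPM. The Rieske iron-sulfur protein gene Uqcrfs1, at 216 and 228 CPM, differed by less than counting error.

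Complex IV, cytochrome c oxidase, had 8440 CPM in the distal and 9664 CPM in the niche library (log2 ratio 0.20, 0.17 to 0.22). Cox7b had the highest ratio among its abundant members, with 450 CPM in the distal and 645 CPM in the niche library (log2 ratio 0.52, 0.43 to 0.61). Cox8a made 1267 and 1382 CPM (0.12, 0.07 to 0.18). Cox4i1 was level, with 1219 and 1230 CPM (0.01, -0.04 to 0.07). Cox7a2l encodes a protein known to join complexes III and IV into supercomplexes. Neither supercomplexes nor the form of this protein in the strain used were examined. Cox7a2l was lower in the niche library, with 435 CPM in the distal and 339 CPM in the niche library (log2 ratio -0.36, -0.45 to -0.27). Its promoter, printed above, held none of the 4 motifs. Its close relative Cox7a2 went the other way, from 554 CPM in the distal to 677 CPM in the niche library.

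Complex V had 7520 CPM in the distal and 8922 CPM in the niche library (log2 ratio 0.25, 0.22 to 0.27), and all 15 genes were higher in the niche library. The median log2 ratio of all genes tested in this class was -0.03. Atp5k, subunit e of the membrane part, where synthase dimers form, was at 503 CPM in the distal and 756 CPM in the niche library (log2 ratio 0.59, 0.51 to 0.67). Atp5l, subunit g and its partner in that place, was at 780 and 862 CPM (0.14, 0.07 to 0.21), so the 2 dimer subunits differed in ratio beyond counting error. The 5 genes of the catalytic F1 head had a summed log2 ratio of 0.20 (0.17 to 0.24), and the other 10 genes one of 0.27 (0.24 to 0.30). Atp5e, a small F1 subunit, had the highest CPM of the complex with 975 in the distal and 1119 in the niche library. Atp5g1, Atp5g2 and Atp5g3 encode the same mature subunit c of the rotor ring. Atp5g1 went from 293 CPM in the distal to 424 CPM in the niche library (0.53, 0.42 to 0.64), and Atp5g3 from 256 to 320 CPM (0.32, 0.21 to 0.45). Atp5g2, the most abundant of them, was at 550 and 581 CPM (0.08, -0.003 to 0.16). The subunit c genes thus differed among themselves, with Atp5g1 above Atp5g2 in ratio by more than counting error. Atp5h, subunit d of the stalk, was at 529 and 576 CPM.

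The Ndufaf genes encode proteins that help build complex I without staying in it. They were grouped with Atp5s and Atp5sl, and the 10 genes made 221 CPM in the distal and 269 CPM in the niche library (log2 ratio 0.29, 0.16 to 0.42), with 6 higher and 4 lower. Ndufaf4 had the highest ratio of all members with 100 or more UMIs, at 15.7 CPM in the distal and 31.0 CPM in the niche library (38 and 655 UMIs, log2 ratio 0.97, 0.51 to 1.5). Ndufaf2 was at 22.2 and 32.5 CPM (0.53, 0.15 to 0.97).

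In interstitial macrophage-like cells (122 distal, 165 niche), the members made 21893 CPM in the distal and 27810 CPM in the niche library, a log2 ratio of 0.35 (0.32 to 0.37). Of 85 members with 20 or more UMIs there, 51 were above the fold and 4 below it, beside 36.6% above and 27.7% below among 8566 genes, whose median log2 ratio was 0.08. Of these members, 74 were higher in the niche library in both macrophage classes, 33 were above the fold in both and 5 were lower in both. Of all genes tested, 21.5% were above the fold in monocyte/macrophage-like cells and 36.6% in this class. The share of all genes in both was not counted, so the overlap has no background. The 2 classes are different cells of the same 2 libraries, so they are no replicates of each other. Among cells with 5000 to 15000 UMIs, a range both libraries share, the log2 ratio of the members in this class was 0.13, less than the value from all cells, while in monocyte/macrophage-like cells it was 0.21. Marker levels differed between the libraries in this class as well. Alveolar macrophage markers were at 199 CPM in the distal library, with Krt79 and Marco at 0, and at 15.3 CPM in the niche library, with 5 of 10 at 0. Proliferation markers were at 115 and 295 CPM, and the interstitial macrophage markers that name the class at 32199 and 21572 CPM, with all 10 of each list detected. Their part in the members' difference was not tested.

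By complex, the log2 ratio in interstitial macrophage-like cells was 0.34 for complex I, 0.21 for complex II, 0.37 for complex III, 0.31 for complex IV and 0.40 for complex V. Among cells with 5000 to 15000 UMIs these values were 0.16, -0.02, 0.09, 0.10 and 0.15, and the intervals of complex II (-0.25 to 0.21) and complex III (-0.01 to 0.20) spanned 0. Ndufab1, the mitochondrial acyl carrier protein that is also a complex I subunit, went from 108 CPM in the distal to 221 CPM in the niche library (log2 ratio 1.03, 0.71 to 1.37). Ndufab1 was chosen after its values were seen. Cox5a, at 534 and 888 CPM (0.73, 0.59 to 0.88), also stood out and was likewise chosen afterwards. Atp5g1 was again ahead of Atp5g2, with 264 CPM in the distal and 431 CPM in the niche library beside 525 and 567 CPM. Cox7a2l was again lower in the niche library, with 389 CPM in the distal and 302 CPM in the niche library (log2 ratio -0.37, -0.55 to -0.18).

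Dendritic-like cells (228 distal, 116 niche) had 24490 CPM of the members in the distal and 23638 CPM in the niche library, a log2 ratio of -0.05 (-0.07 to -0.03). Of 85 members, 3 were above the fold and 13 below it, beside 24.9% above and 34.6% below among 8364 genes, so that both shares of the members were under the background. The sign of the summed value changed with 4 alternative settings. Markers of other cells moved with the library here too: interstitial macrophage markers were at 692 CPM in the distal and 3216 CPM in the niche library with Folr2 at 0 in both, and alveolar macrophage markers at 613 CPM with Marco at 0, and 137 CPM with Ear1, Krt79 and Marco at 0. Neutrophil markers were at 854 CPM with all 10 detected, and 154 CPM with Retnlg and Mmp8 at 0, and proliferation markers at 700.4 and 210.0 CPM. Their part in the members' values was not tested. The pooled class had a different makeup in each library. Conventional dendritic-like cells numbered 149 in the distal and 39 in the niche library, with 25922 and 25483 CPM of the members. Migratory dendritic-like cells numbered 47 and 59, with 19401 and 21402 CPM. Plasmacytoid dendritic-like cells numbered 32 and 18, with 22532 and 26379 CPM. The migratory and plasmacytoid cells had the higher level in the niche library and the conventional cells the lower one, and most of these groups are under 50 cells. Assembly factors had 222 CPM in the distal and 176 CPM in the niche library (log2 ratio -0.33, -0.58 to -0.09), with 5 of 9 genes below the fold and 1 above it. Complex V had 7205 CPM in the distal and 6533 CPM in the niche library (log2 ratio -0.14, -0.18 to -0.10), with 14 of 15 genes lower. The complex V value was -0.07 when centred on the median of all genes, -0.03 (-0.06 to 0.01) in cells with at least 500 genes and -0.02 with each cell weighted equally. Atp5k was the complex V gene that was higher in the niche library, with 428 and 508 CPM. Cox7a2l too turned around, with 428 CPM in the distal and 510 CPM in the niche library (0.25, 0.10 to 0.40).

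The summed subunit level in the distal library was highest in T cell-like cells (26617 CPM) and monocyte/macrophage-like cells (26298 CPM). Alveolar macrophage-like cells (25698 CPM), conventional dendritic-like cells (25689 CPM) and proliferating alveolar macrophage-like cells (24938 CPM) came close behind. Interstitial macrophage-like cells (21683 CPM), blood monocyte-like cells (20161 CPM) and B cell-like cells (17656 CPM) were lower, and neutrophil-like cells were lowest by far with 7580 CPM. In the niche library, proliferating monocyte/macrophage-like cells had 31191 CPM and monocyte/macrophage-like cells 30713 CPM. The T cell-like class held 2 unlike clusters, cluster 9 with 28304 CPM in 266 distal cells and cluster 15 with 16784 CPM in 101. Cluster 9 held the full list of proliferation markers, which cluster 15 did not. The part of proliferation in the level of the class was not tested.

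**Figure D2:**
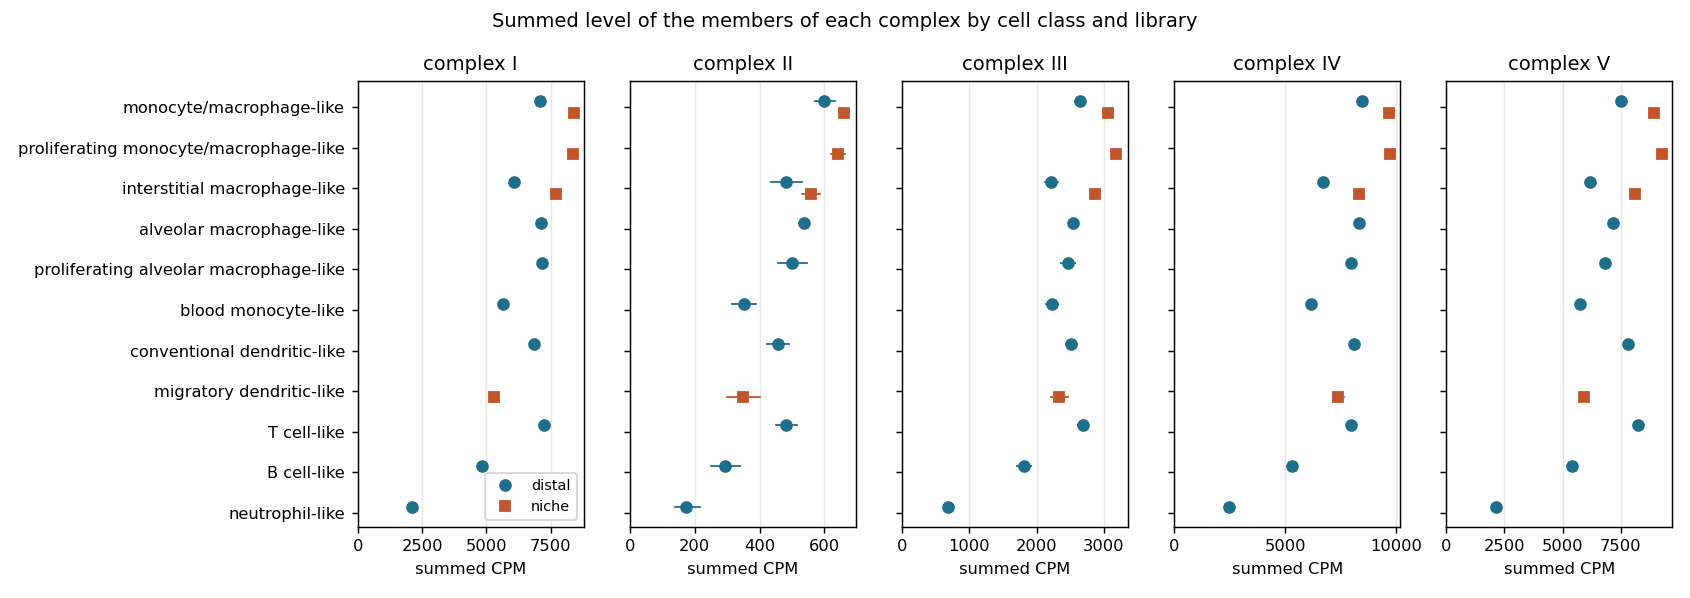
The horizontal axes give the summed CPM of the members of each complex, starting at 0 and with a scale of their own per panel, and the vertical axis lists cell classes of 50 or more cells in the library. Circles are the distal library, squares the niche library, and lines 95% counting intervals, often narrower than the symbol. Neutrophil-like cells lie far left in each panel, and the niche squares of the macrophage classes lie right of the distal circles.

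Set against monocyte/macrophage-like cells of the same library, where software and gene list are shared, alveolar macrophage-like cells had a log2 ratio of all members of -0.03 (-0.05 to -0.02), with 16 of 87 members above the fold and 16 below it, beside 50.3% above and 24.3% below among all genes tested. This sum depended on the settings: it was -0.302 when centred on the median of all genes and -0.158 between the largest clusters, and it was just above 0 when each cell was weighted equally or thinned to 2000 UMIs. Single subunits differed in both directions. Within complex II, Sdha was at 129 CPM in alveolar macrophage-like and 78.3 CPM in monocyte/macrophage-like cells (log2 ratio 0.72, 0.50 to 0.96), and Sdhb at 185 and 296 CPM (-0.68, -0.81 to -0.55). These 2 proteins sit in the enzyme in equal number, and their RNAs had opposite gaps. Ndufs1, the core subunit with the most iron-sulfur clusters, was at 53.0 and 25.1 CPM (1.07, 0.69 to 1.49), and was named after its values were seen. Ndufaf4 was at 32.4 and 15.7 CPM (1.04, 0.56 to 1.58).

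T cell-like cells had a log2 ratio of 0.02 (0.003 to 0.04) over monocyte/macrophage-like cells in the distal library, with 13 of 86 members above the fold and 14 below it (background 46.3% and 32.9%). Complex V was higher, at 8262 against 7520 CPM, and complex II lower, at 482 against 600 CPM. B cell-like cells had a log2 ratio of -0.57 (-0.60 to -0.54), with 5 of 83 members above and 64 below the fold (background 36.7% and 43.5%). Complex II was furthest down in B cell-like cells (-1.03, -1.27 to -0.80), and Sdhb was at 107 CPM there. Ndufb11, an accessory subunit encoded on the X chromosome, was an exception to the lower level in B cell-like cells, with 273 against 208 CPM (0.40, 0.13 to 0.65). It was also the complex I gene with the highest ratio in T cell-like cells among those with 100 or more UMIs, at 324 CPM.

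Blood monocyte-like cells had a log2 ratio of -0.38 (-0.41 to -0.36) over monocyte/macrophage-like cells, with 2 of 85 members above and 58 below the fold (background 41.1% and 30.5%). In neutrophil-like cells, which are known to hold few mitochondria, the log2 ratio was -1.80 (-1.85 to -1.75), with 0 of 83 members above and 82 below the fold (background 26.6% and 62.6%). Those cells had few UMIs in all, with a median of 1081 over both libraries. Uqcrb, a complex III subunit, was at 27.4 CPM in neutrophil-like and 417 CPM in monocyte/macrophage-like cells, from 13 UMIs. Cox8a kept 665 CPM beside 1267. Ndufaf6 had 0 UMIs in the distal neutrophil-like cells, and Ndufaf4 and Ndufaf2 had 1 each, so their wide ranges over classes rest on these few counts. In the niche library, migratory dendritic-like cells had a log2 ratio of -0.53 (-0.56 to -0.51) over monocyte/macrophage-like cells, with 3 of 89 members above and 80 below the fold (background 33.3% and 45.4%).

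**Figure D3:**
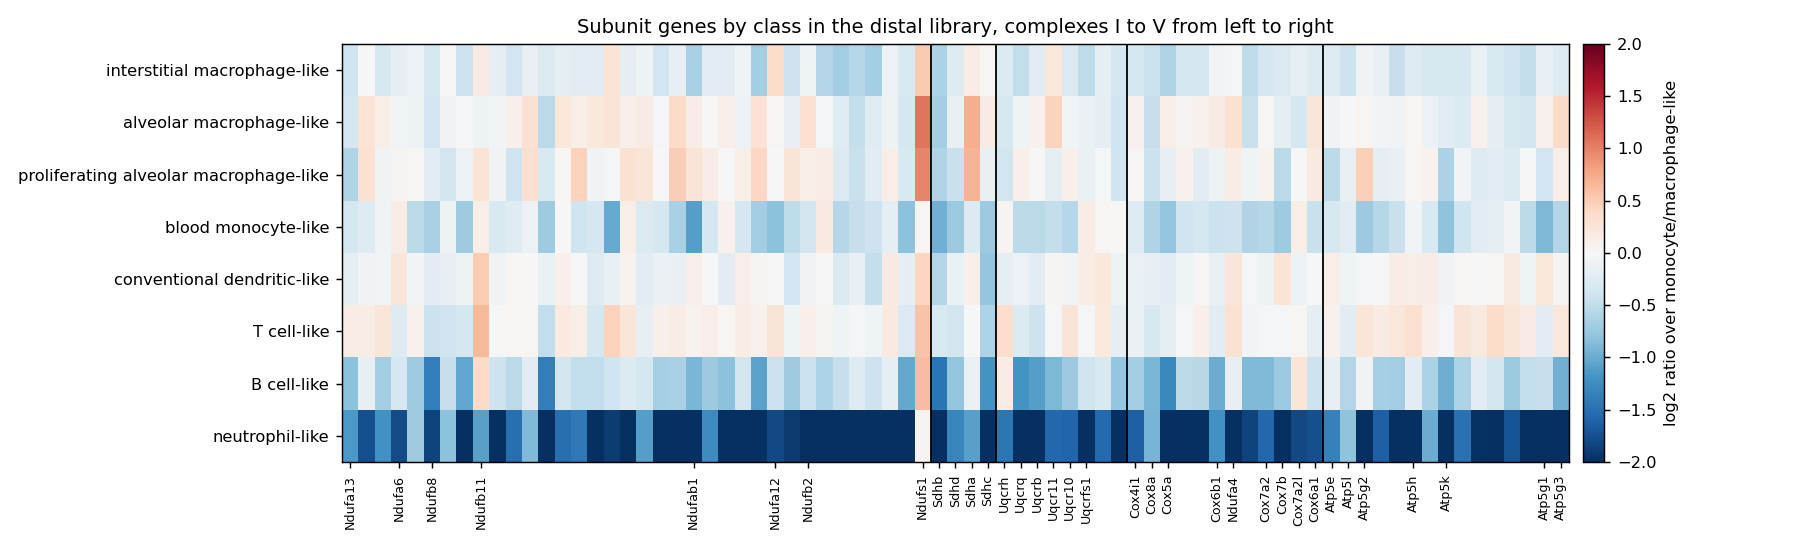
Columns are the subunit genes with 500 or more UMIs in the distal library, with black lines between complexes I, II, III, IV and V, and rows are cell classes of that library; genes run from more to fewer UMIs within a complex, and those named in the text are labelled. Colour gives the log2 ratio over monocyte/macrophage-like cells, red for higher and blue for lower, and values past 2 in either direction have the end colour. The neutrophil-like row is blue almost throughout, and Ndufs1 and Sdha stand out red in both alveolar macrophage-like rows.

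Nuclear and mitochondrially encoded subunits did not keep one proportion. The 13 mitochondrially encoded subunits made 54471 CPM in B cell-like, 44048 CPM in alveolar macrophage-like, 32320 CPM in monocyte/macrophage-like and 8857 CPM in neutrophil-like cells of the distal library. Per UMI of these, the nuclear subunits had 0.324 UMIs in B cell-like, 0.583 in alveolar macrophage-like, 0.814 in monocyte/macrophage-like and 0.856 in neutrophil-like cells. B cell-like and neutrophil-like cells were thus the low and high ends of the distal classes, although both had little nuclear subunit RNA. Between libraries, the mitochondrially encoded sum in monocyte/macrophage-like cells was 32320 CPM in the distal and 30974 CPM in the niche library (log2 ratio -0.06, -0.07 to -0.05). Past the fold were 0 of 13 genes, beside 21.5% above and 27.4% below among all genes tested. The nuclear share per mitochondrial UMI in this class was 0.814 in the distal and 0.992 in the niche library. In interstitial macrophage-like cells it was 0.539 and 0.710. Cells with over 10% mitochondrial UMIs had been removed, 405 barcodes of the distal and 161 of the niche library, which bears on these levels directly.

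**Figure D4:**
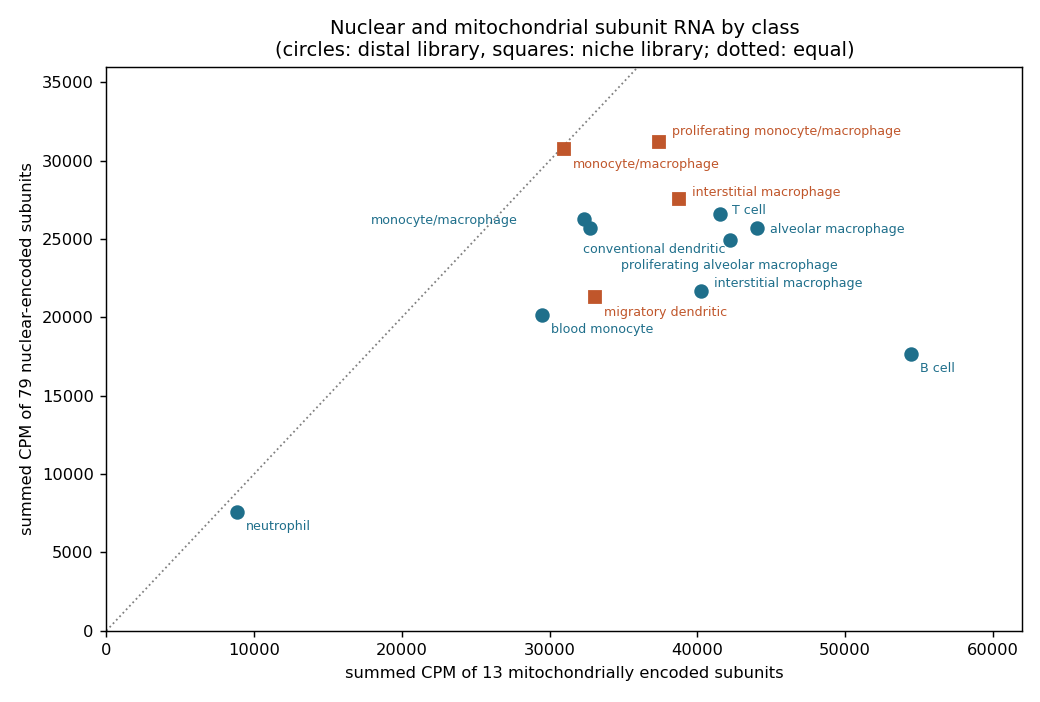
Each symbol is 1 named cell class of 50 or more cells, circles for the distal and squares for the niche library, with the summed CPM of 13 mitochondrially encoded subunits on the horizontal and of 79 nuclear-encoded subunits on the vertical axis. The dotted line marks equal levels. The niche monocyte/macrophage-like cells lie next to that line and the distal B cell-like cells farthest to its right.

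Several complex IV subunits have isoform genes used in particular tissues. Cox6a2, the heart and skeletal muscle isoform, made 1385 CPM in distal plasmacytoid dendritic-like cells (305 UMIs in 32 cells) and 886 CPM in niche ones (208 UMIs in 18 cells). Its ubiquitous counterpart Cox6a1 made 254 CPM in the distal cells of that class. In monocyte/macrophage-like cells Cox6a2 was at 1.24 and 2.65 CPM in the distal and niche library, and T cell-like cells of the distal library had 0 UMIs, which (at 3 counts) allows up to 1.72 CPM. The isoform was therefore concentrated in both libraries in the same small class. Outside it, the highest Cox6a2 level among distal classes of 30 or more cells was 28.8 CPM, in 41 proliferating monocyte/macrophage-like cells.

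Cox6b2, known as the testis isoform, was at 35.3 CPM in alveolar macrophage-like cells (292 UMIs) and 66.4 CPM in proliferating alveolar macrophage-like cells (63 UMIs) of the distal library. In distal monocyte/macrophage-like cells it was at 7.42 CPM from 18 UMIs, and in niche ones at 3.13 CPM from 66 UMIs, the log2 ratio of -1.27 (-2.02 to -0.41) that placed it below the fold. Alveolar macrophage markers were lower in niche monocyte/macrophage-like cells as well, as given above, and the part of alveolar macrophage RNA in the low Cox6b2 counts was not tested. Cox6b1, the general isoform, was at 712 CPM in alveolar macrophage-like cells.

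Cox4i2, the isoform known to be induced by low oxygen in lung, was scarce: 2.06 CPM (5 UMIs) in distal and 3.65 CPM (77 UMIs) in niche monocyte/macrophage-like cells, within counting error of each other. Cox7a1, the muscle isoform of Cox7a2, was at 5.77 and 8.67 CPM in the same cells (14 and 183 UMIs), also within counting error. Ndufa4, a complex IV subunit, has a relative outside the member rule, AA467197, which is known to replace it during inflammation. AA467197 was at 32.1 CPM in distal and 63.4 CPM in niche monocyte/macrophage-like cells (log2 ratio 0.97, 0.65 to 1.33), while Ndufa4 was at 527 and 631 CPM (0.26, 0.18 to 0.34). In migratory dendritic-like cells AA467197 was at 67.8 CPM (22 UMIs) in the distal and 263 CPM (149 UMIs) in the niche library. Ndufa4 was at 308 and 318 CPM in these cells.

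**Figure D5:**
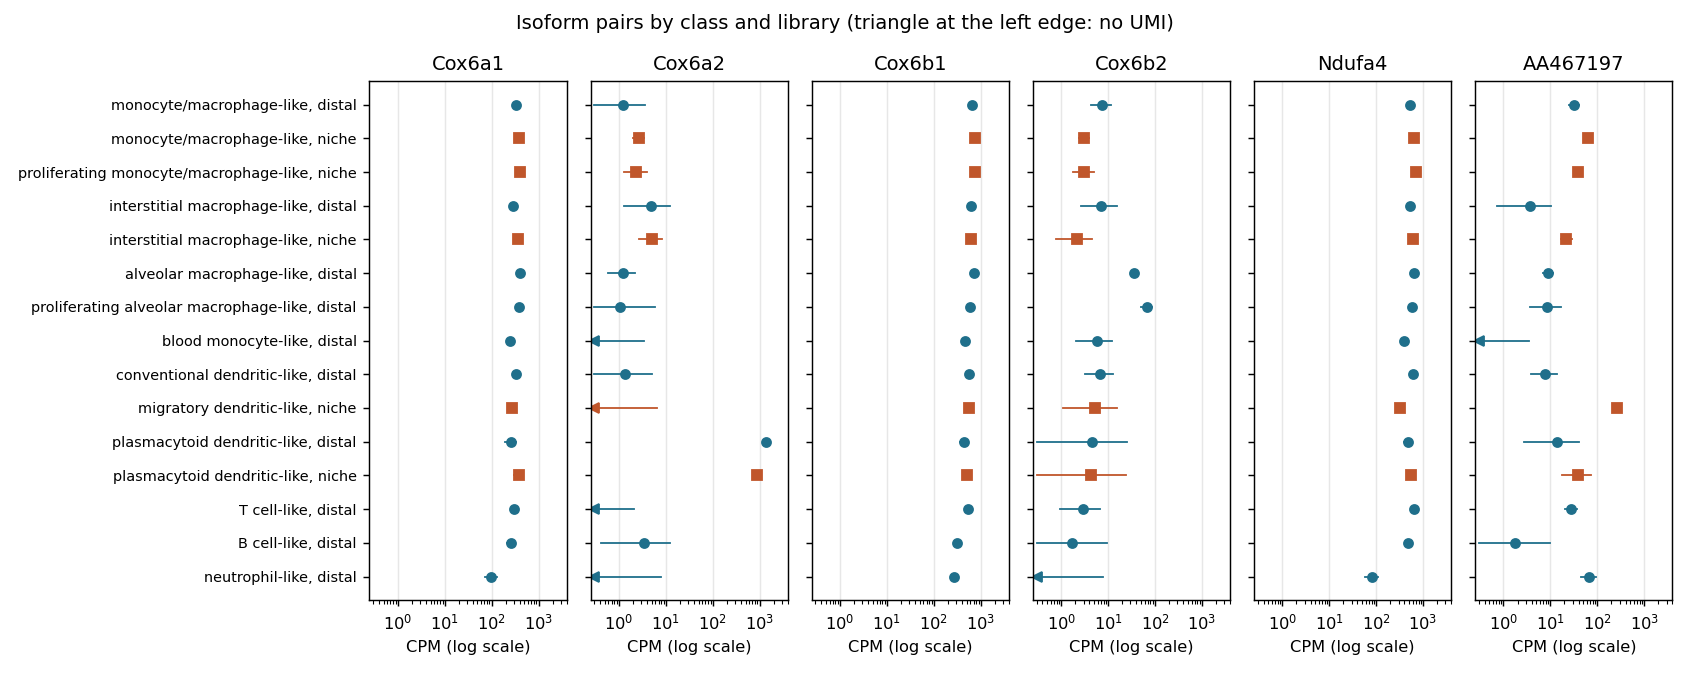
Horizontal axes give CPM on a log scale and rows are cell classes by library (circles distal, squares niche), with 95% counting intervals as lines and a triangle at the left edge where no UMI was found. Plasmacytoid dendritic-like classes have under 50 cells. Cox6a2 stands to the right in those 2 rows, Cox6b2 in the alveolar macrophage-like rows, and AA467197 in niche migratory dendritic-like cells.

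Other genes of the pathway were read from lists beside the members in monocyte/macrophage-like cells, where 21.5% of all genes tested were above the fold and 27.4% below it. Carriers and subunits outside the rule, among them cytochrome c (Cycs) and cytochrome c1 (Cyc1), had 7 of 10 genes above the fold and 0 below it. Cyc1 went from 136 CPM in the distal to 195 CPM in the niche library and Cycs from 260 to 340 CPM. Assembly factors outside the rule had 14 of 38 above and 5 below, with a median log2 ratio of 0.06 beside 0.34 for their sum. Cox16 and Cox17 are in this list and had very high ratios, and whether the differing gene lists affect these was not checked. Enzymes of the citric acid cycle and pyruvate dehydrogenase had 8 of 16 above the fold and 0 below it, mitochondrial carriers and channels 3 of 9 and 0, and mitochondrial ribosomal proteins 27 of 78 and 1. Coenzyme Q synthesis genes had 6 of 13 above and 2 below, with a median of -0.004. Genes linked to hypoxia or inflammation had 3 of 6 above and 0 below.

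Glycolysis had the highest share of the lists read, with 15 of 17 genes above the fold and 0 below it, 4221 CPM in the distal and 5879 CPM in the niche library (log2 ratio 0.48, 0.45 to 0.51). In interstitial macrophage-like cells glycolysis had a log2 ratio of 0.77 (0.71 to 0.84). Cytosolic ribosomal proteins were at 9 of 82 above and 7 below. Regulators of mitochondrial gene expression had 3 of 12 above the fold and 1 below it. The background in monocyte/macrophage-like cells was 21.5% of all genes tested above the fold and 27.4% below it. Esrra, a nuclear receptor known to act on respiratory genes, was at 21.0 and 30.3 CPM (log2 ratio 0.51, 0.11 to 0.97), and Gabpa, the DNA-binding part of GABP, at 14.8 and 10.8 CPM, with an interval that spans 0. Nrf1 and Tfam likewise had intervals that span 0.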

How the data were processed

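Both libraries were deposited as count matrices: the authors' files hold whole UMI counts per gene and cell, per the file headers written by software versions 3.0.2 (distal) and 6.0.0 (niche). The submitters' processing notes name Cell Ranger 3.02 and Seurat 4.1.1. Many members have near-identical processed pseudogenes, and how the authors' counting treated reads shared with them is not given in the sources used here.

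Barcodes were kept when they had 200 or more genes and no more than 10% of UMIs from mitochondrial genes. Scrublet called 0.0755% of 6621 cells and was taken as not having worked, so doublets may remain. Clusters came from scanpy (2000 variable genes, 30 principal components, 20 neighbours, Leiden resolution 1.0), without members and mitochondrially encoded genes, and were named from marker lists with thresholds set after seeing them. Sums were compared as log2 ratios of CPM with 0.5 UMI added, with exact conditional binomial intervals, and a level of 0 UMIs is bounded by 3 counts. A fold of 1.2 was used as a descriptive mark, for genes with 20 or more UMIs. The ratio step was tested on simulated counts, drawn independently from a fixed gene profile with known changes. That simulation held no variation between cells, clusters or libraries, so it checks the calculation only.

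Members, lists and tests were chosen with earlier results of these data known. Named genes are, per complex in monocyte/macrophage-like cells with 100 or more UMIs, the 2 most abundant, the 2 highest and the 2 lowest in ratio, plus isoform sets and the 5 members with the widest range over distal classes. The lists of mitochondrial and cytosolic ribosomal proteins were added after the data were seen. Python 3.11.15, scanpy 1.11.5, scipy 1.17.1 and pandas 2.3.3 were used.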

Additional observations from a re-analysis of the deposited data

Results flagged for a closer look

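The pooled dendritic-like cells had a value of the opposite sign to the macrophage classes. Their summed members had a niche over distal log2 ratio of -0.0511, while monocyte/macrophage-like cells had 0.22 and interstitial macrophage-like cells 0.35. With 1 library per group this difference between classes was not tested, and the makeup of the pooled class differed, with 149 conventional and 47 migratory cells in the distal and 39 and 59 in the niche library. Migratory and plasmacytoid cells had the higher level in the niche library, as the macrophage classes did. Both were under 50 cells in the distal library, and plasmacytoid cells numbered 32 in the distal and 18 in the niche library. The sign of the pooled value depends on the settings given in the next section.

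A cluster that entered no comparison between libraries had the highest subunit level of all classes of 50 or more cells. It held 328 niche and 4 distal cells with a median of 973 UMIs, and its summed subunits made 34770 CPM in the niche library. Its mitochondrially encoded subunits made 24941 CPM, so it had 1.39 nuclear subunit UMIs per mitochondrially encoded one.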

How the results depend on the processing

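One library per group limits every comparison, and intervals do not cover differences between animals. No paired analysis was possible because each group has 1 library. In monocyte/macrophage-like cells the summed members stayed higher in the niche library under all 16 alternatives, 3 of them chosen after seeing the data (cells with 5000 to 15000 UMIs, UMIs of shared genes as denominator, clusters weighted equally). The log2 ratio was 0.25 when centred on the median of all genes, 0.249 with each cell weighted equally, 0.253 after thinning to 2000 UMIs, 0.190 with up to 20% mitochondrial UMIs, 0.201 with at least 500 genes, 0.196 and 0.200 at resolutions 0.5 and 2.0, 0.195 without the highest 5% of doublet scores, 0.209 among cells with 5000 to 15000 UMIs and 0.116 in the largest cluster. The count of members above the fold lay between 21, in the largest cluster, and 48, after thinning. In the largest cluster, cluster 1, 24.5% of the genes tested were above the fold, so the members' share there was near the background. Under the other alternatives the share of all genes was not counted, so those counts have no background.

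Alveolar macrophage-like over monocyte/macrophage-like cells gave -0.0498 without mitochondrially encoded and ribosomal protein genes in the denominator, -0.302 when centred, -0.0578 with up to 20% mitochondrial UMIs, -0.0539 at resolution 0.5, -0.158 for the largest clusters and -0.0480 without doublet scores in the highest 5%. It reversed to 0.00636 with each cell weighted equally and to 0.00347 after thinning.

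In dendritic-like cells the sum reversed to 0.0229 when centred, 0.0464 with each cell weighted equally, 0.0339 with at least 500 genes and 0.00673 at resolution 2.0. Complex I there reversed to 0.000374, 0.0420 and 0.0175 under the first 3 of these. Complex II reversed to -0.0160 in the largest monocyte/macrophage-like cluster and to -0.0232 in interstitial macrophage-like cells with 5000 to 15000 UMIs. The cause was not tested for any of these. Interstitial macrophage-like cells at resolution 2.0 and the largest dendritic-like cluster had under 50 cells in a library and gave no value, and weighting clusters equally was run for monocyte/macrophage-like cells only.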
